A study of Mus musculus with 6 samples.

Results

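RNA sequencing of tumours grown from PANC02-H7 cells was set against that of normal pancreas. The comparison used 4 of the study's 6 libraries, chosen by their labels: 2 of H7 tumours and 2 of whole normal pancreas. All mice were of the C57BL/6 strain and none was treated. PANC02-H7 is a metastatic subline of Panc02, a pancreatic cancer line that arose in the same strain, so donor cells and hosts were matched. The cells were injected by surgery, and the tumours were dissected after 20 days. The tumour group stands for 1 cell line, and each tumour library mixes RNA of injected cells with RNA of host cells. Genotype, age and sex of the mice are not given in the labels used here. The labels also do not say whether the replicates of a group came from separate animals, so p-values measure the spread between these samples, which may be technical. The series concerns WDR5, an adaptor of the enzymes that methylate lysine 4 of histone H3, together with osteopontin (the product of Spp1) and the immune checkpoint ligand PD-L1 (the product of Cd274). The question here was which genes differ between these tumours and the organ in which they grew.

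Normal pancreas is mostly exocrine tissue. Acinar cells make digestive zymogens under the transcription factors PTF1A, RBPJL, NR5A2 and MIST1 (the product of Bhlha15), store them in granules and release them into ducts. The islets, a small part of the organ, secrete insulin, glucagon and somatostatin. Pancreatic tumours hold cancer cells and a stroma of fibroblasts, matrix, vessels and macrophages. In bulk RNA, fewer cells of a type and less RNA per cell cannot be told apart, and this holds for every result here.

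The libraries differed in depth and in content. The H7 tumours had 33332516 and 36307030 reads counted in genes, and the normal samples had 12077320 and 8204225. Ribosomal RNA, which was set aside, made 86.4% and 85.0% of the normal reads and 27.8% and 24.6% of the tumour reads. Of what was left in normal pancreas, Lars2, a mitochondrial leucyl-tRNA synthetase gene, and 1 unnamed gene took 52.6% and 43.0%. Lars2 alone held 685372 and 10416 reads in normal library 1 and 2. Whether these reads come from its messenger or from ribosomal RNA was not tested. Without Lars2 and the unnamed gene, normal pancreas held 780777 and 699044 reads for all other genes, and the tumours held 23880939 and 27212141. A tested gene had a median of 14 reads in either normal library and of 571 and 652 in the tumours. The normal pair was also less alike than the tumour pair. Among genes with a mean of at least 5 CPM (read counts scaled to a common library size), 5.31% differed more than 4-fold between the normal libraries and 0.548% between the H7 libraries. The normal values rest on far fewer reads, and the part of counting noise in this contrast was not tested. With the tumours thinned to the normal depth without Lars2, log2 CPM correlated at 0.959 in the tumour pair, against 0.899 in the normal pair.

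The H7 libraries differed from each other in a few gene groups. Skeletal muscle markers, such as the fast myosin gene Myh4, summed to 3.26 and 1369 CPM in the H7 tumours and 16.6 and 4.97 CPM in normal pancreas, so library 2 stood 420-fold above library 1. Islet hormone and granule genes were higher in H7 library 2 in 17 of 17 members, and more than 4-fold higher in 12 of them. Of the 10590 genes at 5 CPM or more in the tumours, 49 were more than 4-fold higher in library 2 and 9 in library 1. With either H7 library left out, edgeR called 0 genes in either direction (5615 without library 1 and 5384 without library 2 at an unadjusted p under 0.05). In the same settings limma-voom called 2465 genes without library 1 and 1960 without library 2. In these settings the lone tumour library is assumed to vary like the normal pair, so they give little check of single genes. Where a value differed much between the tumour libraries, both values are given.

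**Figure D1:**
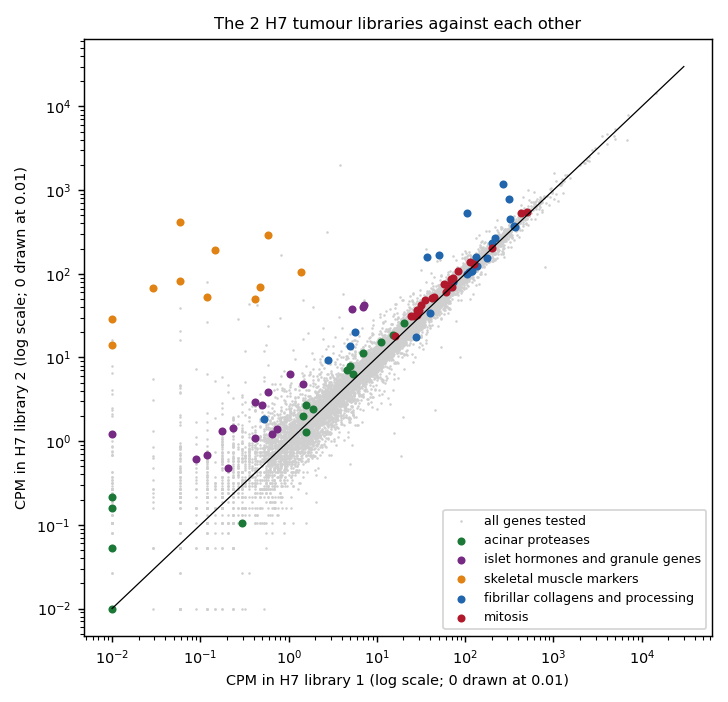
Level in H7 library 2 (vertical axis, CPM, log scale) against H7 library 1 (horizontal axis, CPM, log scale) for all genes tested (grey) and for the measured members of 5 gene lists (coloured); the line marks equal levels. Mitosis genes lie along the line, skeletal muscle markers lie far above it (420-fold higher in library 2 in sum), and islet genes and several collagens also lie above it.

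Of 14885 genes tested, 4262 were higher in H7 tumours (28.6%) and 3298 were lower (22.2%), by edgeR's quasi-likelihood test at an adjusted p under 0.05. Both directions together made 50.8%, and in 79.2% of the genes tested the tumour and normal values did not overlap, so a share of members near these is no result about a group. The median log2 fold change of all genes tested was 0.27. Of the calls 56.4% were rises, a share that became 79.8% under totals without ribosomal RNA (median shifted by 0.96), 57.2% under those totals with Lars2 and the unnamed gene also out (median shifted by 0.03, 4369 higher and 3264 lower) and 46.1% under upper-quartile factors (median shifted by -0.31). Totals without ribosomal RNA, where named alone below, still count Lars2 and the unnamed gene. The share of calls moved with the number of reads a gene had in normal pancreas. These reads also enter the fold change, so depth and level cannot be told apart here. Of the 3722 genes with the fewest normal reads 26.3% were called higher and 4.03% lower, and of the 3721 with the most, 23.2% and 43.4%. No read in normal pancreas was found for 688 tested genes, and 222 of these were called higher. No read in the tumours was found for 23 tested genes, and all 23 were called lower. A gene unread in a group passed the filter only through reads of the other group, so neither count is a result. Protein-coding genes were called higher more often than lower (30.2% and 22.5%), and long non-coding RNAs lower more often than higher (17.8% and 7.30%). Of 14194 genes shared with the authors' deposited table of the same comparison, 3425 were higher in both, 3064 were lower in both and 1 was called in opposite directions.

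**Figure D2:**
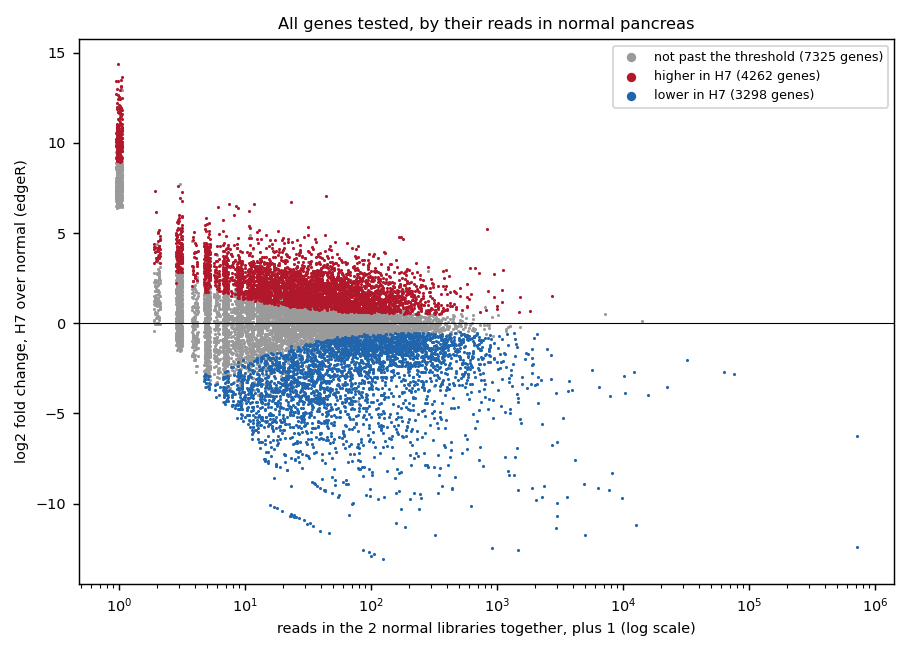
The log2 fold change of H7 tumours over normal pancreas (vertical axis) of each of the 14885 genes tested against its reads in the 2 normal libraries together plus 1 (horizontal axis, log scale). Red points are the 4262 genes called higher, blue points the 3298 called lower and grey points the rest, and calls of lower thin out at the left, where normal pancreas has few reads. Genes with no normal read stand at 1, where the fitted value is no bound.

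In what follows, levels are in CPM on effective library sizes, and each gene's values are given for H7 library 1 and 2 against normal library 1 and 2. A positive log2 fold change means higher in the tumours. Most read pairs were counted once per mate, so 3 pairs, or 6 reads over a group, served as the floor below which no fitted fold is given. A gene with no read in a group gets a lower bound against that floor. A gene with 1 to 6 reads in a group gets a ratio with its 95% exact binomial interval, which covers counting error only. Where a list's median changes with such unread members set at their bound, or at 0 where both groups were under the floor, it is given both ways.

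The 6 largest rises among genes well read in all libraries were Tnc, Slit2, Fn1, Sulf1, Il33 and Thbs1. Tnc (chr4:63959785-64047015, as all positions here on mouse build GRCm38) encodes tenascin C, a matrix glycoprotein of wounds and tumours, and stood at 3215 and 2791 CPM against 17.6 and 26.8 CPM (log2 fold change 7.08 ± 0.32 SE, adjusted p = 0.000166). Slit2 (chr5:47981291-48307735), a secreted guidance ligand of ROBO receptors, stood at 626 and 645 CPM against 16.6 and 14.9 CPM (log2 fold change 5.33 ± 0.21 SE, adjusted p = 0.000151). Fn1 (chr1:71585473-71653280), the fibronectin gene, stood at 14425 and 14545 CPM against 429.6 and 354 CPM (log2 fold change 5.21 ± 0.35 SE, adjusted p = 0.000337). In these 3 genes the tumour values lay close together and far above both normal values. Sulf1 (chr1:12692197-12861192), an extracellular heparan sulfate sulfatase, stood at 621 and 632 CPM against 17.6 and 23.8 CPM (log2 fold change 4.92 ± 0.23 SE, adjusted p = 0.000168). Il33 (chr19:29925113-29960718), a nuclear alarmin cytokine, stood at 439 and 452 CPM against 15.7 and 13.9 CPM (log2 fold change 4.91 ± 0.20 SE, adjusted p = 0.000154). Thbs1 (chr2:118111876-118127133), the thrombospondin 1 gene, stood at 2503 and 2223 CPM against 101 and 67.6 CPM (log2 fold change 4.81 ± 0.29 SE, adjusted p = 0.000293). None of the 6, chosen by size of rise, overlapped between the groups, and 79.2% of all genes tested did not overlap either. The most abundant RNAs per length in the tumours were the non-coding Rn7sk, Rpph1 and Rmrp, mitochondrial COX1 and Actb. Fn1 came sixth among all RNAs of the tumours, at 5969 and 5573 TPM (transcript abundance per length) against 97.2 and 118 TPM in normal pancreas.

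The 6 largest falls under the same rule were Lars2 and 5 exocrine genes. Lars2 held 1903 and 2662 reads against 685372 and 10416 reads, with normal library 1 far above normal library 2. Its fall (adjusted p = 0.0111) was lost without normal library 2 (adjusted p = 0.0506). Amy2b (chr3:113147656-113156727), a pancreatic amylase gene, stood at 0.704 and 0.664 CPM against 2556 and 2147 CPM (log2 fold change -11.73 ± 0.31 SE, adjusted p = 0.000109). Pdia2 (chr17:26195999-26199134), a protein disulfide isomerase of the pancreas, stood at 0.587 and 0.425 CPM against 1227 and 1491 CPM (log2 fold change -11.38 ± 0.32 SE, adjusted p = 0.000109). Pnlip (chr19:58670365-58681799), the pancreatic lipase gene, stood at 2.67 and 2.97 CPM against 7487 and 5521 CPM (log2 fold change -11.17 ± 0.40 SE, adjusted p = 0.000140). These 3 were near 0 in both tumours and high in both normal libraries. Rbpjl (chr2:164403081-164415448), the pancreatic partner of PTF1A, stood at 0.675 and 1.11 CPM against 1433 and 1566 CPM (log2 fold change -10.69 ± 0.36 SE, adjusted p = 0.000140). Ctrl (chr8:105931994-105933862), a chymotrypsin-like protease gene, stood at 1.58 and 1.27 CPM against 1375 and 1466 CPM (log2 fold change -9.95 ± 0.27 SE, adjusted p = 0.000109).

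Acinar enzymes fell together. All 15 tested acinar protease genes were lower (22.2% of all genes tested were), with a median log2 fold change of -9.02, or -8.93 with unread members at their bound. Cela1, an elastase, stood at 5.34 and 6.29 CPM against 4145 and 5651 CPM (log2 fold change -9.72 ± 0.37 SE, adjusted p = 0.000151). Cpa1, carboxypeptidase A1, stood at 11.1 and 15.1 CPM against 4244 and 4016 CPM (log2 fold change -8.30 ± 0.33 SE, adjusted p = 0.000152). Cpb1, carboxypeptidase B1, stood at 4.96 and 7.91 CPM against 4132 and 3695 CPM (log2 fold change -9.25 ± 0.39 SE, adjusted p = 0.000154). In these 3 the tumours kept under 1% of either normal level. Ctrc, chymotrypsin C, held 0 and 8 reads against 882 and 604 reads. Cela3a held 0 and 0 reads against 53 and 30 reads, which makes it at least 489-fold lower in the tumours. The trypsin, elastase and amylase families have near-identical copies, so the split of reads between their members is uncertain. Per length, Cela1 at 7050.0 and 14124 TPM ranked eleventh in normal pancreas and Pnlip at 9471 and 10263 TPM twelfth, behind Lars2, mitochondrial messengers such as COX1 and non-coding RNAs such as Rmrp, Rn7sk and Rpph1. In the tumours Cela1 was at 16.6 and 18.1 TPM.

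The other exocrine lists moved the same way. All 9 tested lipase, amylase and nuclease genes were lower (median -8.93). Cel, carboxyl ester lipase, stood at 5.19 and 5.23 CPM against 2539 and 2546 CPM (log2 fold change -8.93 ± 0.25 SE, adjusted p = 0.000109), and the values within each pair were nearly equal. Pla2g1b, the pancreatic phospholipase A2, held 4 and 2 reads against 147 and 83 reads (ratio normal to H7 1356, 95% counting interval 453 to 6673). Of 15 tested genes of the zymogen granule and its release, 13 were lower, Rab27b was not called (37.3 and 41.5 against 30.3 and 27.8 CPM) and Vamp8 was higher. Zg16, a granule matrix lectin, stood at 0.880 and 1.33 CPM against 987 and 1018 CPM (log2 fold change -9.81 ± 0.31 SE, adjusted p = 0.000140). Gp2, the main glycoprotein of the granule membrane, stood at 4.93 and 3.24 CPM against 612 and 804 CPM (log2 fold change -7.44 ± 0.34 SE, adjusted p = 0.000166). Both were far below either normal value in both tumours. Vamp8, a vesicle fusion protein also used outside the pancreas, stood at 62.97 and 74.8 CPM against 34.2 and 15.9 CPM, and its call held in 18 of 21 alternatives.

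All 7 transcription factors of acinar cells were lower, over a wide range. Nr5a2, an orphan nuclear receptor of exocrine genes, stood at 1.41 and 1.73 CPM against 193 and 224 CPM (log2 fold change -7.05 ± 0.24 SE, adjusted p = 0.000140). Bhlha15, whose product MIST1 organises secretory cells, stood at 0.645 and 0.265 CPM against 126 and 84.5 CPM (log2 fold change -7.85 ± 0.48 SE, adjusted p = 0.000297). Like Rbpjl, both separated the groups by more than 100-fold. Ptf1a was low throughout, at 0.293 and 0.159 CPM against 3.91 and 5.96 CPM (10 and 6 reads against 4 and 6 reads). Gata4 (5.46 and 6.66 against 16.6 and 21.9 CPM) and Gata6 (2.29 and 2.57 against 30.3 and 11.9 CPM), which act in pancreas development, fell less. Xbp1, a factor of the secretory stress response, stood at 129.8 and 141 CPM against 323 and 335 CPM (log2 fold change -1.28 ± 0.16 SE, adjusted p = 0.00175). The Xbp1 call was lost under totals without ribosomal RNA (adjusted p = 0.270) and against a fold of 2 (adjusted p = 0.0592).

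The stretch just upstream of 2 acinar genes is shown because the site of the PTF1 complex, which holds PTF1A and RBPJL, joins an E-box (CANNTG) to a TGGGAA element. These are the 250 bases before the annotated start from RefSeq (build GRCm38.p6), 5′ to 3′ on the gene's strand, with matches to either motif on either strand in capitals. Cpa1 lies at chr6:30638968-30639217, plus strand, and Cela2a at chr4:141826006-141826255, minus strand.
Cpa1: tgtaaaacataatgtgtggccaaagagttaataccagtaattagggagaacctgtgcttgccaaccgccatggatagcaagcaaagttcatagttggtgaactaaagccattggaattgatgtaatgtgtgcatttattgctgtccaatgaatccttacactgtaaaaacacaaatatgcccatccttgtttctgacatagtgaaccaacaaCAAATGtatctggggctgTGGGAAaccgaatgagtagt
Cela2a: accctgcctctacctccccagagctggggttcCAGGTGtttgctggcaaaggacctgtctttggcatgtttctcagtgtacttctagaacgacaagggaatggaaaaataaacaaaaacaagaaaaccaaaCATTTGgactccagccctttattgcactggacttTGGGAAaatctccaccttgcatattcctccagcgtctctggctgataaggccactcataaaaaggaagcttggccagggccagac
Both genes were picked by level in normal pancreas among those whose stretch holds both motifs, so a match of each was fixed by the choice. In Cpa1 the 2 motifs lie close together near the start. The 3 lists of acinar enzymes and granule genes hold 43 genes, of which 32 had a promoter in the table. Of these 24 (75.0%) held CANNTG, 17 (53.1%) held TGGGAA and 13 (40.6%) held both. The shares among all 27025 genes with a promoter were 69.3%, 24.1% and 16.7%. A gene counted where any of its listed promoters matched. A match describes letters and says nothing of binding.

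Protein folding genes of the endoplasmic reticulum were higher in 11 of 19 and lower in 4 (28.6% and 22.2% of all genes tested). Pdia6, a disulfide isomerase, stood at 451 and 485 CPM against 99.8 and 97.4 CPM (log2 fold change 2.25 ± 0.17 SE, adjusted p = 0.000436). Canx, the lectin chaperone calnexin, stood at 784 and 833 CPM against 180.1 and 203 CPM (log2 fold change 2.08 ± 0.18 SE, adjusted p = 0.000600). Hspa5, the chaperone BiP, stood at 1057 and 1294 CPM against 442 and 581 CPM, a call lost against a fold of 2 (adjusted p = 0.175). The first pair of genes lay about 4-fold higher and Hspa5 closer, all without overlap (as in 79.2% of all genes tested). The 4 that fell were Derl3, Herpud1 and Edem1, which serve the disposal of misfolded proteins, and the chaperone Hyou1 (231 and 252 against 351 and 541 CPM). Derl3 stood at 0.528 and 0.610 CPM against 176 and 117 CPM (log2 fold change -7.99 ± 0.33 SE, adjusted p = 0.000154). Herpud1 stood at 91.1 and 89.5 CPM against 875 and 966 CPM (log2 fold change -3.35 ± 0.18 SE, adjusted p = 0.000230). Edem1 stood at 135 and 148 CPM against 336 and 386 CPM (log2 fold change -1.35 ± 0.17 SE, adjusted p = 0.00184). Derl3 was almost unread in the tumours, while Herpud1 and Edem1 were still read. Against a fold of 2 the rises came to 6.

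Islet genes were lower too, by an amount that depended on the tumour library. Of 17 tested hormone and granule genes 14 were lower, while Gcg, Ppy and Kcnj11 were not called. Ins2, a preproinsulin gene, stood at 7.04 and 40.4 CPM against 605 and 258 CPM (log2 fold change -4.18 ± 0.90 SE, adjusted p = 0.0112). Its log2 fold change was -3.61 without H7 library 1 and -6.11 without library 2, and without normal library 1 the call was lost (adjusted p = 0.0515). Chga, chromogranin A of secretory granules, stood at 1.03 and 6.42 CPM against 168 and 76.5 CPM (log2 fold change -5.03 ± 0.90 SE, adjusted p = 0.00609). Both genes were about 6-fold higher in H7 library 2 than in library 1 and still below either normal value. Gcg, proglucagon, stood at 7.10 and 42.7 CPM against 163 and 67.6 CPM (adjusted p = 0.0773). Slc30a8, the zinc transporter of insulin granules, stood at 0.205 and 0.478 CPM against 45.99 and 26.8 CPM (log2 fold change -6.69 ± 0.55 SE, adjusted p = 0.000555). Abcc8, the sulfonylurea receptor, stood at 0.734 and 1.38 CPM against 85.1 and 87.4 CPM (log2 fold change -6.33 ± 0.37 SE, adjusted p = 0.000285). Without normal library 1 the falls came to 6. The whole list summed to 26.02 and 151 CPM in the H7 tumours and 1751 and 827 CPM in normal pancreas; the part that this difference within groups had in single calls was not tested.

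Islet transcription factors did not move as 1 group. Nkx2-2, Isl1, Neurod1, Nkx6-1, Pax6 and Rfx6 were lower, Mafa was not called, and 2 were higher, among them Pdx1. The shares of all genes tested were 22.2% lower and 28.6% higher. Nkx2-2 stood at 0.117 and 0.106 CPM against 11.7 and 11.9 CPM (log2 fold change -6.64 ± 0.63 SE, adjusted p = 0.000781). Isl1 stood at 0 and 0.372 CPM against 8.81 and 24.8 CPM (log2 fold change -6.40 ± 1.10 SE, adjusted p = 0.00531). Pdx1, which specifies the whole pancreas in the embryo and serves beta cells in the adult, stood at 28.2 and 26.9 CPM against 9.79 and 7.95 CPM (log2 fold change 1.63 ± 0.30 SE, adjusted p = 0.00653). Nkx2-2 and Isl1 were nearly unread in the tumours, whereas Pdx1 was highest there. Without normal library 1 the falls came to 3.

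Duct markers did not follow 1 direction. Of 13 tested, 3 were higher (Spp1, Aqp1 and Sox9), 5 were lower and 5 were not called. Of all genes tested 28.6% were higher and 22.2% lower. The list's median of -0.33 became 0.62 under totals without ribosomal RNA. Krt19, a keratin of duct cells, stood at 95.7 and 68.2 CPM against 66.5 and 41.7 CPM (adjusted p = 0.142). Krt7, another, stood at 23.9 and 16.5 CPM against 19.6 and 13.9 CPM (adjusted p = 0.551). Cftr, Car2 and Bicc1 were also not called. Onecut1, Pkhd1, Muc1 and Slc4a4 were among the 5 that fell. Pkhd1, the cilium protein fibrocystin, stood at 13.4 and 11.6 CPM against 347 and 365 CPM (log2 fold change -4.83 ± 0.19 SE, adjusted p = 0.000154). Onecut1, a factor of duct development, stood at 0.851 and 0.823 CPM against 91 and 46.7 CPM (log2 fold change -6.35 ± 0.42 SE, adjusted p = 0.000337). Muc1, an apical mucin, stood at 16.5 and 8.65 CPM against 113 and 72.5 CPM (log2 fold change -2.88 ± 0.40 SE, adjusted p = 0.00251). In none of these 3 did the groups overlap, nor did they in 79.2% of all genes tested. Without normal library 1 the falls came to 3, and the Sox9 call was lost without normal library 2 (adjusted p = 0.0755).

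Epithelial junction and identity genes were lower in 11 of 20 and higher in 4 (22.2% and 28.6% of all genes tested). Grhl2, a transcription factor of epithelia, stood at 2.55 and 1.88 CPM against 86.1 and 79.5 CPM (log2 fold change -5.22 ± 0.27 SE, adjusted p = 0.000223). Esrp1, an epithelial splicing factor, stood at 3.93 and 2.36 CPM against 92.96 and 49.7 CPM (log2 fold change -4.50 ± 0.43 SE, adjusted p = 0.000854). Dsp, the desmosome protein desmoplakin, stood at 23.8 and 18.3 CPM against 368 and 222 CPM (log2 fold change -3.81 ± 0.31 SE, adjusted p = 0.000557). Both tumour values lay far below both normal values in these 3. Cdh1, E-cadherin, was nearer, at 51.3 and 45.9 CPM against 155 and 95.4 CPM (log2 fold change -1.36 ± 0.26 SE, adjusted p = 0.00774). The 4 rises were Krt8, Krt18, Jup and Tjp1. Krt8, a keratin of simple epithelia, stood at 346 and 360.3 CPM against 95.9 and 54.6 CPM (log2 fold change 2.23 ± 0.28 SE, adjusted p = 0.00183). Jup, plakoglobin, stood at 145 and 136 CPM against 53.8 and 53.7 CPM (log2 fold change 1.38 ± 0.17 SE, adjusted p = 0.00175).

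Mesenchymal genes rose in 5 of 11 (28.6% of all genes tested did), namely Fn1, S100a4, Vim, Snai1 and Zeb2. S100a4, a calcium-binding protein of motile cells, stood at 219 and 213 CPM against 7.83 and 9.94 CPM (log2 fold change 4.60 ± 0.22 SE, adjusted p = 0.000206). Vim, vimentin, stood at 1227 and 1207 CPM against 96.9 and 178 CPM (log2 fold change 3.15 ± 0.32 SE, adjusted p = 0.000958). Snai1, a repressor of E-cadherin, held 915 and 711 reads against 4 and 0 reads (ratio H7 to normal 11.5, 95% counting interval 3.17 to 95.04). All 3 were at least 4 times higher in each tumour than in either normal library. Zeb1 was not called (52.8 and 55.3 against 47.9 and 47.7 CPM), nor were Twist1, Prrx1, Cdh2, Snai2 and Cdh11, and Cdh11 was 3.82-fold higher in H7 library 2 than in library 1. The list's median of 0.18 became -0.13 under upper-quartile factors. Of 7 tested oncofetal genes, Igf2 and Hmga1 rose, a share near that of all genes tested (28.6%). Igf2, a fetal growth factor, stood at 237 and 172 CPM against 7.83 and 1.99 CPM (log2 fold change 5.37 ± 0.45 SE, adjusted p = 0.000588). H19, its imprinted neighbour, stood at 4.14 and 57.7 CPM in the tumours and was not called (adjusted p = 0.113).

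Matricellular proteins, which signal from the matrix, were higher in 11 of 15 (28.6% of all genes tested were), with a median log2 fold change of 3.06. Tnc and Thbs1 were among them. Spp1 (chr5:104435111-104441053), the osteopontin gene, stood at 2258 and 2116 CPM against 60.7 and 97.4 CPM (log2 fold change 4.79 ± 0.30 SE, adjusted p = 0.000302). Per length it ranked ninth among all RNAs of the tumours, at 4684 and 4064 TPM against 68.8 and 162 TPM in normal pancreas. Thbs2, thrombospondin 2, stood at 1179.7 and 1146 CPM against 13.7 and 7.95 CPM (log2 fold change 6.74 ± 0.29 SE, adjusted p = 0.000157). Both were far above normal pancreas in both tumours. Edil3, an integrin ligand, held 3032 and 3335 reads against 0 and 0 reads, so it was at least 29.99-fold higher. Ccn4, a secreted Wnt target, held 1394 and 2562 reads against 0 and 0 reads (at least 18.6-fold higher). Sparc, Thbs3, Ccn1, Ccn2 and Ccn5 were the other rises. The 1 fall was Tnxb, tenascin X, at 0.528 and 5.28 CPM against 142 and 184 CPM (log2 fold change -5.80 ± 0.99 SE, adjusted p = 0.00507), with H7 library 1 far below library 2. Sparcl1, Ccn3 and Postn were not called, and Postn, periostin, stood at 36.1 and 196 CPM against 36.2 and 45.7 CPM, with only H7 library 2 above normal pancreas.

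Receptors of osteopontin rose in 7 of 10 (28.6% of all genes tested did). Cd44 (chr2:102811141-102901669), a receptor of hyaluronan and osteopontin, stood at 381 and 347 CPM against 45.99 and 43.7 CPM (log2 fold change 3.02 ± 0.18 SE, adjusted p = 0.000293). Itgb5, an integrin beta chain, stood at 242 and 289 CPM against 17.6 and 19.9 CPM (log2 fold change 3.82 ± 0.22 SE, adjusted p = 0.000272). Itgav, the alpha chain that pairs with it, stood at 332 and 294 CPM against 49.9 and 45.7 CPM (log2 fold change 2.71 ± 0.18 SE, adjusted p = 0.000346). Each tumour value was more than 4 times each normal value in these genes and in Itgb1, at 695 and 770.4 CPM against 137 and 173 CPM (log2 fold change 2.24 ± 0.20 SE, adjusted p = 0.000679). Itga5, Itgb6 and Itgb3 also rose. Itga4 (56.9 and 66.8 against 69.5 and 60.6 CPM), Itga8 (4.99 and 7.03 against 7.83 and 3.97 CPM) and Itga9 (46.1 and 45.2 against 45.01 and 25.8 CPM), alpha chains of other osteopontin-binding integrins, were not called.

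Collagens and the enzymes that process them were higher in 15 of 24, with 0 lower. They fell into genes that were alike in both tumours and genes that were not. Lox, a collagen cross-linking oxidase, stood at 106 and 100.3 CPM against 0 and 5.96 CPM (ratio H7 to normal 34.8, 95% counting interval 11.9 to 169). Loxl3, a related oxidase, stood at 109.9 and 106 CPM against 3.91 and 12.9 CPM (log2 fold change 3.69 ± 0.41 SE, adjusted p = 0.00126). Col12a1, a fibril-associated collagen, stood at 319 and 452 CPM against 13.7 and 13.9 CPM (log2 fold change 4.80 ± 0.28 SE, adjusted p = 0.000282). In these 3 the tumours lay within 1.42-fold of each other. Col1a1, of type I collagen, stood at 311 and 785 CPM against 70.5 and 87.4 CPM (log2 fold change 2.80 ± 0.47 SE, adjusted p = 0.00474), a call lost in limma-voom (adjusted p = 0.0817). Col1a2, the other type I chain, stood at 106 and 531 CPM against 79.3 and 97.4 CPM (adjusted p = 0.0782). Col3a1, of type III collagen, stood at 270.1 and 1169 CPM against 300.4 and 483 CPM (adjusted p = 0.302). Of these fibril collagens H7 library 2 held 2.52 to 5.02 times as much as library 1. The log2 fold change of Col3a1 was 1.39 without H7 library 1 and -0.71 without library 2, and that of Col1a2 was 2.40 and 0.08. The whole list summed to 3363 and 5613 CPM in the H7 tumours and 1140.0 and 1556 CPM in normal pancreas.

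Of 18 tested basement membrane genes 6 were higher and 5 lower, shares near those of all genes tested (28.6% and 22.2%). Col18a1, the source of endostatin, stood at 319.8 and 315 CPM against 32.3 and 31.8 CPM (log2 fold change 3.31 ± 0.18 SE, adjusted p = 0.000238). Lamb1, a laminin chain, stood at 334 and 329.5 CPM against 49.9 and 84.5 CPM (log2 fold change 2.30 ± 0.27 SE, adjusted p = 0.00146). Lamc1, Lama5, Col4a1 and Col4a2 were the other rises. The falls were the laminin chains Lama2 (5.28 and 12.7 against 62.6 and 78.5 CPM), Lama3 (12.9 and 10.9 against 44.03 and 76.5 CPM), Lama4 and Lamb3, and Nid2, a nidogen. Without normal library 2 the falls came to 3, and against a fold of 2 there were 3 rises and 3 falls. Matrix proteases and their inhibitors were higher in 13 of 20. Timp1, an inhibitor of metalloproteinases, held 5566 and 5615 reads against 0 and 2 reads (ratio H7 to normal 158, 95% counting interval 28.3 to 6242). Mmp14, a membrane-bound collagenase, stood at 271 and 278 CPM against 16.6 and 19.9 CPM (log2 fold change 3.91 ± 0.20 SE, adjusted p = 0.000216). Ctsb, the lysosomal protease cathepsin B, stood at 711 and 697 CPM against 79.3 and 128 CPM (log2 fold change 2.76 ± 0.26 SE, adjusted p = 0.000833). The urokinase gene Plau (32.8 and 35.7 against 7.83 and 7.95 CPM) and its receptor gene Plaur (27.3 and 27.8 against 5.87 and 8.94 CPM) were among the rises. Mmp19 was the 1 fall (6.57 and 8.57 against 15.7 and 17.9 CPM), and it was lost with either normal library left out.

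Feedback and target genes of the ERK pathway, which growth factor signalling induces, rose in 12 of 15, with 0 lower. Their median was 2.76, or 2.04 with unread members at their bound. Dusp6, the phosphatase that turns ERK off, stood at 275 and 286 CPM against 17.6 and 24.8 CPM (log2 fold change 3.72 ± 0.23 SE, adjusted p = 0.000295). Ccnd1, cyclin D1, stood at 511 and 514 CPM against 44.03 and 47.7 CPM (log2 fold change 3.48 ± 0.18 SE, adjusted p = 0.000216). Emp1, a membrane protein, stood at 678 and 714 CPM against 22.5 and 40.7 CPM (log2 fold change 4.46 ± 0.30 SE, adjusted p = 0.000346). Each tumour value was more than 10 times each normal value. Spry4 (9.01 and 7.40 against 9.79 and 5.96 CPM), Spred2 (25.9 and 21.5 against 7.83 and 17.9 CPM) and Fosl1 were not called. With the trend on gene length removed the rises came to 7.

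Genes of the EGF family were higher in 5 of 11 and lower in 3 (28.6% and 22.2% of all genes tested). Among receptors, Egfr stood at 151 and 151 CPM against 25.4 and 27.8 CPM (log2 fold change 2.50 ± 0.19 SE, adjusted p = 0.000435). Erbb2 rose less (50.1 and 43.8 against 16.6 and 19.9 CPM). Erbb3 fell, with the normal libraries far apart (6.25 and 6.95 against 70.5 and 16.9 CPM), and its call was lost without normal library 1 (adjusted p = 0.0580). Erbb4 held 2 and 4 reads against 6 and 12 reads (ratio normal to H7 106, 95% counting interval 26.5 to 609.5) and was the other receptor that fell. Among ligands, Egf stood at 0.792 and 0.902 CPM against 58.7 and 22.9 CPM (log2 fold change -5.58 ± 0.53 SE, adjusted p = 0.000841). Ereg, epiregulin, held 714 and 928 reads against 0 and 0 reads, so it was at least 7.74-fold higher. Nrg1, a neuregulin that binds ERBB3 and ERBB4, held 254 and 339 reads against 0 and 0 reads (at least 2.79-fold higher). Egf was thus lower and these other ligands, with Hbegf (1970 and 1409 reads against 4 and 2 reads), were higher. Tgfa, Areg and Btc were not called.

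Of 20 tested genes of TGF-beta signalling, 14 rose and 3 fell (28.6% and 22.2% of all genes tested), with a median of 1.28. The ligand genes Tgfb1 (50.7 and 52.9 against 7.83 and 5.96 CPM) and Tgfb3 (123 and 121 against 19.6 and 15.9 CPM) rose. Tgfb2 fell (2.20 and 4.14 against 11.7 and 11.9 CPM), a call that was lost with either normal library left out. The signalling receptor Tgfbr1 stood at 258 and 260.4 CPM against 32.3 and 33.8 CPM (log2 fold change 2.97 ± 0.18 SE, adjusted p = 0.000293). The co-receptor Tgfbr3 stood at 3.61 and 5.87 CPM against 32.3 and 82.5 CPM (log2 fold change -3.59 ± 0.51 SE, adjusted p = 0.00272). The receptor and its co-receptor thus moved in opposite directions. Ltbp1, which tethers latent TGF-beta to the matrix, stood at 513 and 385 CPM against 35.2 and 9.94 CPM (log2 fold change 4.31 ± 0.51 SE, adjusted p = 0.00150). Smad4, the shared SMAD that is often lost in pancreatic cancer, stood at 28.3 and 26.2 CPM against 66.5 and 58.6 CPM (log2 fold change -1.20 ± 0.20 SE, adjusted p = 0.00468). The Smad4 call was lost under totals without ribosomal RNA (adjusted p = 0.446). Smad2 rose (72.3 and 68.9 against 49.9 and 37.8 CPM), and Smad3, Smad6 and Inhbb were not called. Against a fold of 2 the rises came to 8.

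Targets of p53 and inhibitors of cyclin-dependent kinases were higher in 7 of 19 and lower in 2 (28.6% and 22.2% of all genes tested). Their median of 0.40 became -0.26 with the length trend removed. Trp53 itself rose (47.7 and 53.5 against 17.6 and 14.9 CPM). Cdkn2c, an inhibitor of CDK4, held 1436 and 1671 reads against 2 and 2 reads (ratio H7 to normal 21.95, 95% counting interval 6.07 to 182). Phlda3, a p53-induced repressor of AKT, held 2205 and 2714 reads against 0 and 4 reads (ratio H7 to normal 34.8, 95% counting interval 9.61 to 287). Cdkn1a, the p21 gene, was not called (9.30 and 12.95 against 5.87 and 5.96 CPM), and Cdkn2a was near 0 in all 4 libraries (0.616 and 0.425 against 0 and 1.99 CPM). The falls were Sesn1 (log2 fold change -2.32 ± 0.17 SE, adjusted p = 0.000435) and Cdkn1c, and Cdkn1c was lost with either normal library left out. S100 proteins and annexins, which bind calcium and membranes, rose in 13 of 16, while S100a14 and Anxa11 were not called. Anxa8 stood at 299 and 297 CPM against 17.6 and 13.9 CPM (log2 fold change 4.24 ± 0.21 SE, adjusted p = 0.000215). Anxa2 stood at 952 and 957 CPM against 66.5 and 57.6 CPM (log2 fold change 3.94 ± 0.19 SE, adjusted p = 0.000206). S100a6 stood at 409.8 and 436 CPM against 54.8 and 41.7 CPM (log2 fold change 3.13 ± 0.21 SE, adjusted p = 0.000335). Each tumour value was more than 7 times each normal value in these 3. Anxa6 was the 1 fall (31.04 and 64.8 against 114 and 128 CPM), lost with either normal library left out.

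Cell division genes were higher throughout the lists. All 23 genes of mitosis were called higher (28.6% of all genes tested were), and so were 21 of 24 genes of DNA replication, with 0 lower in both lists. Gins1, Rfc4 and Ccne1 were not called. The medians were 3.11 and 2.22. Top2a, the topoisomerase that untangles chromosomes, stood at 431 and 531 CPM against 45.99 and 39.7 CPM (log2 fold change 3.49 ± 0.21 SE, adjusted p = 0.000295). Mki67, the Ki-67 gene, stood at 502 and 543 CPM against 137 and 129 CPM (log2 fold change 1.97 ± 0.17 SE, adjusted p = 0.000605). Cdk1, the kinase that starts mitosis, held 2332 and 3241 reads against 2 and 3 reads (ratio H7 to normal 31.5, 95% counting interval 10.9 to 325). Normal pancreas thus held Mki67 at a fair level, while Cdk1 was almost unread there. Ube2c, the ubiquitin-conjugating enzyme of the anaphase-promoting complex, held 1075 and 1602 reads against 0 and 0 reads (at least 12.6-fold higher). Mcm6, a subunit of the replicative helicase, stood at 152 and 191 CPM against 13.7 and 17.9 CPM (log2 fold change 3.44 ± 0.25 SE, adjusted p = 0.000410). H7 library 2 was the higher tumour in 22 of 23 mitosis genes and 23 of 24 replication genes, by 1.16-fold and 1.24-fold in the sums. Between 21 and 23 mitosis genes were called higher under each alternative other than those without an H7 library.

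Upstream stretches of 2 mitosis genes are shown because cell-cycle promoters combine a CHR element (TTTGAA) with CCAAT boxes. They are again the 250 bases before a RefSeq start (GRCm38.p6), 5′ to 3′, with TTTGAA and CCAAT on either strand in capitals. Mki67 lies at chr7:135716380-135716629, minus strand, and Top2a at chr11:99024190-99024439, minus strand. Each stretch overlaps the span of its gene (chr7:135689784-135716450 and chr11:98992947-99024199), so the starts used lie inside these spans.
Mki67: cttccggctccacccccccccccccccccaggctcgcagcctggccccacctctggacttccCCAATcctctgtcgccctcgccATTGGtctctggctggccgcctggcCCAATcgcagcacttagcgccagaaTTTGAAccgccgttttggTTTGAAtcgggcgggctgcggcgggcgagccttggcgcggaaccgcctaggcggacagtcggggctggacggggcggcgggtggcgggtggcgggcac
Top2a: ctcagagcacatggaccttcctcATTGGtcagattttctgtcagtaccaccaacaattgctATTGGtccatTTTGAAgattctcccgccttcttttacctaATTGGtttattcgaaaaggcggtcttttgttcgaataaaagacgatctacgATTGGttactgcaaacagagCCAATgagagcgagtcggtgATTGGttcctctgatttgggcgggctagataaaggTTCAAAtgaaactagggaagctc
Both genes were picked by level in the tumours among those whose stretch holds both motifs, so a match of each was fixed by the choice. Both stretches hold several CCAAT matches and 2 TTTGAA matches. Of 19 mitosis genes with a promoter in the table (of 23), 17 (89.5%) held CCAAT, 7 (36.8%) held TTTGAA and 7 (36.8%) held both. The shares among all genes with a promoter were 37.5%, 18.3% and 6.45%.

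Glycolysis genes were higher in 15 of 17 with 0 lower (median 2.22), and Gapdh and Slc16a3 were not called. Pkm, pyruvate kinase, stood at 1202 and 1168 CPM against 131 and 104 CPM (log2 fold change 3.33 ± 0.21 SE, adjusted p = 0.000300). Ldha, a lactate dehydrogenase chain, stood at 703 and 636 CPM against 43.1 and 51.7 CPM (log2 fold change 3.82 ± 0.20 SE, adjusted p = 0.000228). Eno1, enolase, stood at 233 and 199.9 CPM against 7.83 and 11.9 CPM (log2 fold change 4.45 ± 0.26 SE, adjusted p = 0.000293). Each tumour value was more than 8 times each normal value. Gapdh has many near-identical copies and its count (4.96 and 3.61 against 0.979 and 3.97 CPM) is uncertain. Genes of the hypoxia response were higher in 5 of 11 and lower in 2 (28.6% and 22.2% of all genes tested). The rises were Car9, Ndrg1, Hif1a, Egln1 and Egln3. Car9, a carbonic anhydrase under HIF1 control, held 3897 and 1870 reads against 1 and 0 reads (ratio H7 to normal 163, 95% counting interval 14.6 to 3221). Ndrg1 stood at 403 and 274 CPM against 76.3 and 35.8 CPM (log2 fold change 2.59 ± 0.39 SE, adjusted p = 0.00329). Vegfa, the vascular growth factor, stood at 143 and 76.1 CPM against 758 and 539.5 CPM (log2 fold change -2.57 ± 0.36 SE, adjusted p = 0.00253). Vegfa was thus lower in both tumours, and so was Epas1, the HIF2A gene (37.9 and 43.5 against 93.9 and 74.5 CPM). The Egln3 call was lost with either normal library left out and in limma-voom (adjusted p = 0.215), and the Epas1 call against a fold of 2 (adjusted p = 0.354). H7 library 1 was the higher tumour in most of this list, 2.30-fold for Car9 and 1.88-fold for Vegfa.

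A stretch of Pkm (chr9:59656977-59657226, plus strand, GRCm38.p6, 250 bases before a RefSeq start, 5′ to 3′) is shown for the core of the hypoxia response element, ACGTG, given in capitals on either strand. The stretch lies inside the gene (chr9:59656576-59679372), so the start used is an internal one.
Pkm: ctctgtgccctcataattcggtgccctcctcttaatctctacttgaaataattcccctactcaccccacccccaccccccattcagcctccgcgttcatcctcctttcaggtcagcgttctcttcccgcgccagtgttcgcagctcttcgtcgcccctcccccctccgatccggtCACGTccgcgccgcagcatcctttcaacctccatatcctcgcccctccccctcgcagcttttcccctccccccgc
Pkm was picked by level in the tumours among genes with a listed stretch that holds the motif, so the match was fixed by the choice. Of 26 glycolysis and hypoxia genes with a promoter in the table (of 28), 16 (61.5%) held ACGTG, against 18.5% of all genes with a promoter.

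Cholesterol synthesis genes were higher in 16 of 19, with 0 lower (median 2.44), and Idi1, Lss and Sc5d were not called. Msmo1, a sterol methyl oxidase, stood at 135 and 108 CPM against 11.7 and 3.97 CPM (log2 fold change 3.94 ± 0.40 SE, adjusted p = 0.00100). Hmgcs1, which makes HMG-CoA, stood at 214 and 194 CPM against 29.4 and 31.8 CPM (log2 fold change 2.74 ± 0.19 SE, adjusted p = 0.000353). The groups did not overlap in either gene, nor in 79.2% of all genes tested. All 19 members were higher in H7 library 1 than in library 2. Proteasome subunits were higher in 21 of 24 with 0 lower (median 1.87), and Psma3, Psma4 and Psmd4 were not called. Psma1, a subunit of the core, stood at 159.7 and 209 CPM against 18.6 and 8.94 CPM (log2 fold change 3.74 ± 0.35 SE, adjusted p = 0.000768). With the length trend removed the proteasome rises came to 11.

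Of 21 genes of nucleotide and one-carbon synthesis, 11 were higher and Asns alone was lower (2 were lower without normal library 1). Paics, of purine synthesis, stood at 293 and 321 CPM against 31.3 and 26.8 CPM (log2 fold change 3.40 ± 0.19 SE, adjusted p = 0.000272). Asns, asparagine synthetase, stood at 43.5 and 35.2 CPM against 109.6 and 117 CPM (log2 fold change -1.53 ± 0.20 SE, adjusted p = 0.00192). The rises came to 4 against a fold of 2 and to 19 under totals without ribosomal RNA. Amino acid transporters fell in 6 of 16 and rose in 2, Slc38a2 and Slc3a2 (22.2% and 28.6% of all genes tested). Their median of -0.58 became 0.32 under totals without ribosomal RNA. Slc6a9, a glycine transporter, stood at 17.4 and 12.4 CPM against 440.4 and 379.6 CPM (log2 fold change -4.78 ± 0.25 SE, adjusted p = 0.000228). Slc38a3, a glutamine transporter, stood at 4.23 and 1.96 CPM against 438 and 279 CPM (log2 fold change -6.86 ± 0.49 SE, adjusted p = 0.000391). Both were many times higher in either normal library than in either tumour. Slc38a5, another glutamine transporter, held 1 and 0 reads against 10 and 12 reads (ratio normal to H7 778, 95% counting interval 56.6 to 16751).

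Stromal markers did not rise as 1 group. Of 18 fibroblast and pericyte markers 5 were higher, 3 were lower and 10 were not called. Of all genes tested 28.6% were higher and 22.2% lower. The list's median of -0.47 became 0.50 under totals without ribosomal RNA. Acta2, smooth muscle actin of activated fibroblasts, stood at 316 and 316 CPM against 15.7 and 23.8 CPM (log2 fold change 4.0 ± 0.24 SE, adjusted p = 0.000295). Pdgfrb, a pericyte and fibroblast receptor, stood at 413 and 333 CPM against 39.1 and 63.6 CPM (log2 fold change 2.86 ± 0.28 SE, adjusted p = 0.000876). Pdgfra, its paralog, stood at 334 and 211 CPM against 45.99 and 54.6 CPM (log2 fold change 2.44 ± 0.28 SE, adjusted p = 0.00146). All 3 were several times higher in both tumours. Dcn and Lum, small proteoglycans, were the other rises, and without normal library 1 the Dcn call was lost (adjusted p = 0.0659) and the rises came to 3. Fap, a marker of cancer fibroblasts, was low and not called (1.17 and 2.999 against 15.7 and 3.97 CPM). The 3 falls were Myh11 of smooth muscle (2.73 and 4.11 against 101 and 95.4 CPM), the chemokine gene Cxcl12 (1.03 and 2.39 against 49.9 and 17.9 CPM) and Clec3b, whose call was lost without normal library 2 (adjusted p = 0.157).

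Endothelial markers were lower in 10 of 16, with 0 higher (median -1.37). Egfl7, a vessel matrix protein, stood at 8.48 and 12.7 CPM against 43.1 and 72.5 CPM (log2 fold change -2.45 ± 0.36 SE, adjusted p = 0.00297). Flt1, a VEGF receptor, stood at 20.1 and 22 CPM against 60.7 and 76.5 CPM (log2 fold change -1.70 ± 0.22 SE, adjusted p = 0.00192). Pecam1, the CD31 gene, stood at 24.8 and 31.8 CPM against 59.7 and 77.5 CPM (log2 fold change -1.28 ± 0.24 SE, adjusted p = 0.00735). The groups did not overlap in these 3, nor in 79.2% of all genes tested. Under totals without ribosomal RNA neither Flt1 (adjusted p = 0.0728) nor Pecam1 (adjusted p = 0.393) was called, and the falls came to 3. They came to 6 without normal library 1 and to 5 without normal library 2. All 16 members were higher in H7 library 2 than in library 1.

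Macrophage and monocyte markers rose in 14 of 22 and fell in 1 (median 2.64, or 2.49 with unread members at their bound). Cx3cr1, the fractalkine receptor, stood at 137 and 124 CPM against 5.87 and 3.97 CPM (log2 fold change 4.73 ± 0.27 SE, adjusted p = 0.000272). C1qc, of complement C1q, stood at 258 and 289.6 CPM against 9.79 and 21.9 CPM (log2 fold change 4.11 ± 0.34 SE, adjusted p = 0.000577). Lyz2, lysozyme, stood at 902 and 658 CPM against 98.8 and 189.8 CPM (log2 fold change 2.43 ± 0.35 SE, adjusted p = 0.00289). In these genes and in Csf1r, the receptor for the macrophage growth factor (302 and 258 against 37.2 and 58.6 CPM), each tumour value was more than 3 times each normal value. Csf1, its ligand, also rose (162 and 142 against 26.4 and 22.9 CPM). Cd163, a scavenger receptor of resident macrophages, was the 1 fall, at 2.14 and 2.47 CPM against 45.01 and 36.8 CPM (log2 fold change -4.14 ± 0.31 SE, adjusted p = 0.000435). The activation markers Arg1 (4.25 and 5.81 against 9.79 and 1.99 CPM) and Nos2 (5.11 and 2.20 against 2.94 and 1.99 CPM) were low and not called, and Ccr2 of recruited monocytes was not called (32.2 and 38.01 against 15.7 and 27.8 CPM). With the length trend removed the rises came to 9.

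Of 8 tested neutrophil markers, Csf3r and Cxcr2 were higher and Ngp was lower (28.6% and 22.2% of all genes tested). S100a8, S100a9, Mmp8, Lcn2 and Ltf were not called. The neutrophil median of 0.44 became -0.57 with the length trend removed. Cxcr2, a chemokine receptor, held 223 and 473 reads against 0 and 0 reads. The Cxcr2 call was lost without normal library 1 (adjusted p = 0.105) and without library 2 (adjusted p = 0.0934). Ngp was too sparse to test without normal library 2. S100a8 (10.6 and 14.6 against 0.979 and 20.9 CPM) overlapped between the groups, and Ltf, lactoferrin, differed widely within both (45.9 and 2.39 against 7.83 and 31.8 CPM). Of 16 tested chemokines and growth factors that attract myeloid cells, 7 were higher and Ppbp was lower (28.6% and 22.2% of all genes tested). Cxcl5, a neutrophil attractant, stood at 104 and 156 CPM against 7.83 and 3.97 CPM (log2 fold change 4.46 ± 0.39 SE, adjusted p = 0.000665). Cxcl3, another, held 857 and 787 reads against 0 and 0 reads (at least 7.74-fold higher). Ccl12, a monocyte attractant, held 364 and 445 reads against 0 and 0 reads (at least 3.81-fold higher). Ccl2, which attracts monocytes too, held 111 and 214 reads against 0 and 0 reads and was not called (adjusted p = 0.0579). The list's median was 3.90, or 1.33 with unread members at their bound.

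None of 18 tested T and NK cell markers was called by edgeR in either direction. At an unadjusted p under 0.05, Cd8a and Gzmb were higher, while DESeq2 called 1 marker higher, limma-voom 3 and edgeR under totals without ribosomal RNA 4. Cd8a, a chain of the cytotoxic T cell coreceptor, held 195 and 329 reads against 2 and 2 reads (adjusted p = 0.0579). Gzmb, granzyme B, held 103 and 257 reads against 0 and 0 reads (adjusted p = 0.0799). Pdcd1 (chr1:94038305-94052553), the PD-1 gene of activated T cells, which is counted with the CD28 family below, held 90 and 176 reads against 0 and 0 reads (adjusted p = 0.0762). Pdcd1 was called higher by DESeq2 (adjusted p = 0.0380) and limma-voom (adjusted p = 0.0267), and so was Gzmb (adjusted p = 0.0214 and 0.0448). Cd8a was called higher on the authors' fragment counts (adjusted p = 0.0255).

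All 10 tested B and plasma cell markers were lower (22.2% of all genes tested were), and 4 more were too sparse to test. Ms4a1, the CD20 gene, held 0 and 2 reads against 29 and 43 reads (ratio normal to H7 1274, 95% counting interval 214 to 51686). Jchain, the joining chain of secreted antibody, held 6 and 14 reads against 68 and 105 reads (log2 fold change -8.23 ± 0.45 SE, adjusted p = 0.000254). Pou2af1, a B cell coactivator, held 15 and 22 reads against 16 and 30 reads (log2 fold change -5.45 ± 0.53 SE, adjusted p = 0.000888). The tumours were sequenced far deeper, yet held fewer reads of each of these 3 in sum than normal pancreas. The list summed to 6.66 and 5.97 CPM in the H7 tumours and 185 and 292 CPM in normal pancreas. Of 4 tested genes of lymphoid tissue and homing, Cxcl13, the B cell chemokine of follicles, fell with them, at 4 and 4 reads against 61 and 23 reads (log2 fold change -8.45 ± 0.66 SE, adjusted p = 0.000477). The other 3, among them Ccr7 and Ltb (3.05 and 4.64 against 7.83 and 7.95 CPM), were not called. Without normal library 2, 5 of the B and plasma cell falls were left, and 2 with the tumours thinned to the normal depth without Lars2.

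Checkpoint genes of the B7 and CD28 families were higher in 5 of 14 and lower in 2 (28.6% and 22.2% of all genes tested). Their median was 2.06, or 0.16 with unread members at their bound. Cd274 (chr19:29362107-29388095), the PD-L1 gene, stood at 29.2 and 35.6 CPM against 3.91 and 7.95 CPM (log2 fold change 2.45 ± 0.38 SE, adjusted p = 0.00383). Vsir, the VISTA gene, stood at 71.4 and 71.4 CPM against 13.7 and 17.9 CPM (log2 fold change 2.18 ± 0.23 SE, adjusted p = 0.00114). Cd276, the B7-H3 gene, held 1277 and 1471 reads against 4 and 0 reads (ratio H7 to normal 19.4, 95% counting interval 5.37 to 160.5). All 3 were higher in both tumours. Tnfrsf14 and Cd86 were the other rises, and the Cd86 call held in 9 of 21 alternatives. The falls were Cd28 (1.03 and 1.59 against 8.81 and 5.96 CPM) and Btla (1.88 and 3.08 against 5.87 and 12.9 CPM), both lost with either normal library left out. Complement genes rose in 5 of 15 and fell in 4, shares near those of all genes tested (28.6% and 22.2%). C1ra, a protease of the C1 complex, stood at 60.97 and 74.7 CPM against 5.87 and 7.95 CPM (log2 fold change 3.30 ± 0.29 SE, adjusted p = 0.000692). C3ar1, C1s1 and Cfb were also among the rises. The falls were Cfd, the fat cell protease adipsin (0.0293 and 0.265 against 56.8 and 162 CPM), Cd55 (0.998 and 1.94 against 22.5 and 36.8 CPM), C2 and C3 (235 and 266 against 449 and 706 CPM). The C2 call was lost without normal library 2 (adjusted p = 0.371) and held in 13 of 21 alternatives. The C3 call was lost against a fold of 2 (adjusted p = 0.193), where 2 complement falls were left.

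Subunits of the H3K4 methyltransferase complexes were lower in 10 of 17 and higher in 3 (22.2% and 28.6% of all genes tested). Their median of -0.87 became 0.17 under totals without ribosomal RNA. Wdr5 (chr2:27515147-27536535) stood at 38.4 and 41.6 CPM against 13.7 and 30.8 CPM and was not called (adjusted p = 0.0998). Its normal values differed from each other by more than 2-fold. It was called higher without normal library 2 (adjusted p = 0.00692) and under totals without ribosomal RNA (adjusted p = 0.0160). With Lars2 and the unnamed gene also out of those totals, Wdr5 was not called. The 3 rises were its core partners Dpy30 (26.2 and 33.3 against 5.87 and 10.9 CPM) and Ash2l (46.8 and 51.1 against 28.4 and 11.9 CPM) and the cofactor Hcfc1 (log2 fold change 1.44 ± 0.19 SE, adjusted p = 0.00220). The Ash2l call held in 12 of 21 alternatives. Rbbp5, the remaining core partner, was not called (33.7 and 35.1 against 46.97 and 37.8 CPM), nor were Men1 and Pagr1a. Cxxc1, the CpG-binding subunit, stood at 33.5 and 34.7 CPM against 284 and 244 CPM (log2 fold change -2.95 ± 0.18 SE, adjusted p = 0.000295). Setd1b, a catalytic subunit, stood at 31.4 and 21.6 CPM against 193 and 150.0 CPM (log2 fold change -2.69 ± 0.26 SE, adjusted p = 0.000879). Kmt2c, another, stood at 220.3 and 180.2 CPM against 730.0 and 675 CPM (log2 fold change -1.81 ± 0.19 SE, adjusted p = 0.00101). These 3 were at least 2 times higher in each normal library than in either tumour. With the length trend removed the falls came to 6 and the rises to 0, and neither Kmt2a (adjusted p = 0.446) nor Kmt2d (adjusted p = 0.203) was called.

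Immediate early and heat shock genes also respond to handling of tissue. They were higher in 7 of 14 and lower in Dusp1 alone (28.6% and 22.2% of all genes tested). The Dusp1 call was lost without normal library 2 (adjusted p = 0.0836), and its direction turned under totals without ribosomal RNA. Junb stood at 199.9 and 184 CPM against 25.4 and 15.9 CPM (log2 fold change 3.21 ± 0.26 SE, adjusted p = 0.000525). The rises came to 2 against a fold of 2 and to 4 without normal library 2. The median was 1.24, or 0.36 with unread members at their bound.

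Markers of tissues that adjoin the pancreas were mostly higher in the normal samples. Fat cell markers were lower in the tumours in 8 of 9, and Pparg was not called. Adipoq, adiponectin, held 0 and 0 reads against 36 and 82 reads (at least 696-fold lower in the tumours). Fabp4, a lipid carrier of fat cells, stood at 2.52 and 4.75 CPM against 82.2 and 179.8 CPM (log2 fold change -5.16 ± 0.52 SE, adjusted p = 0.000940). The list summed to 38.3 and 36.7 CPM in the H7 tumours and 256 and 473 CPM in normal pancreas, and without normal library 2 the falls came to 5. Mesothelial markers fell in 5 of 6 (Upk3b, Upk1b, Lrrn4, Wt1 and Gpm6a), and with either normal library left out the falls came to 3. Msln, mesothelin, rose, at 92.1 and 116 CPM against 1.96 and 5.96 CPM (log2 fold change 4.72 ± 0.40 SE, adjusted p = 0.000588). The red cell genes Hba-a1, Hba-a2 and Alas2 were lower, with 1 fall left without normal library 1 and 0 without library 2. Of Schwann cell markers Scn7a and Mbp were lower and S100b was higher, while 2 markers, among them Ncam1, were not called, and of mast cell markers Kit was lower and Cpa3 was not called. The Mbp call was lost without normal library 1, and its direction turned under totals without ribosomal RNA. The skeletal muscle markers Acta1, Ckm, Mylpf, Tnnt3 and Myh4 were not called by edgeR (0 at an unadjusted p under 0.05), with 1 called by DESeq2 and 0 by limma-voom.

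**Figure D3:**
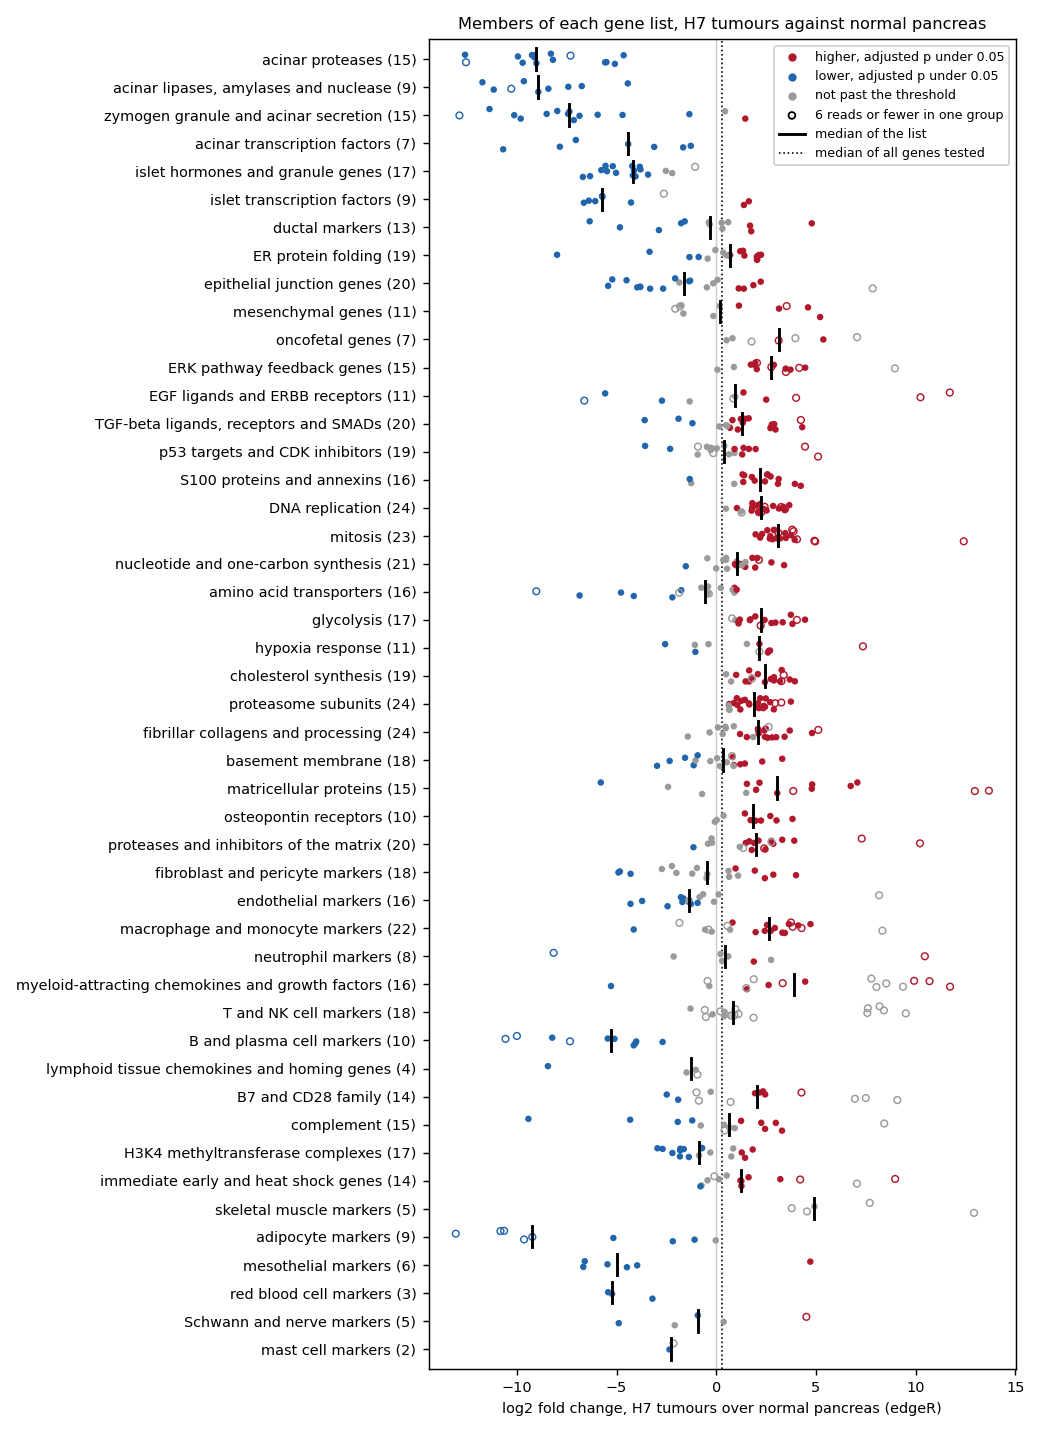
The log2 fold change of H7 tumours over normal pancreas (horizontal axis) of each tested member of the 47 gene lists (rows). Red and blue points passed an adjusted p of 0.05, grey points did not, open points had 6 reads or fewer in a group (their position rests on the fit and is no bound), bars mark list medians and the dotted line the median of all genes tested (0.27). Acinar, B cell and fat cell lists lie left of it and mitosis, replication, cholesterol and matricellular lists right of it.

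**Figure D4:**
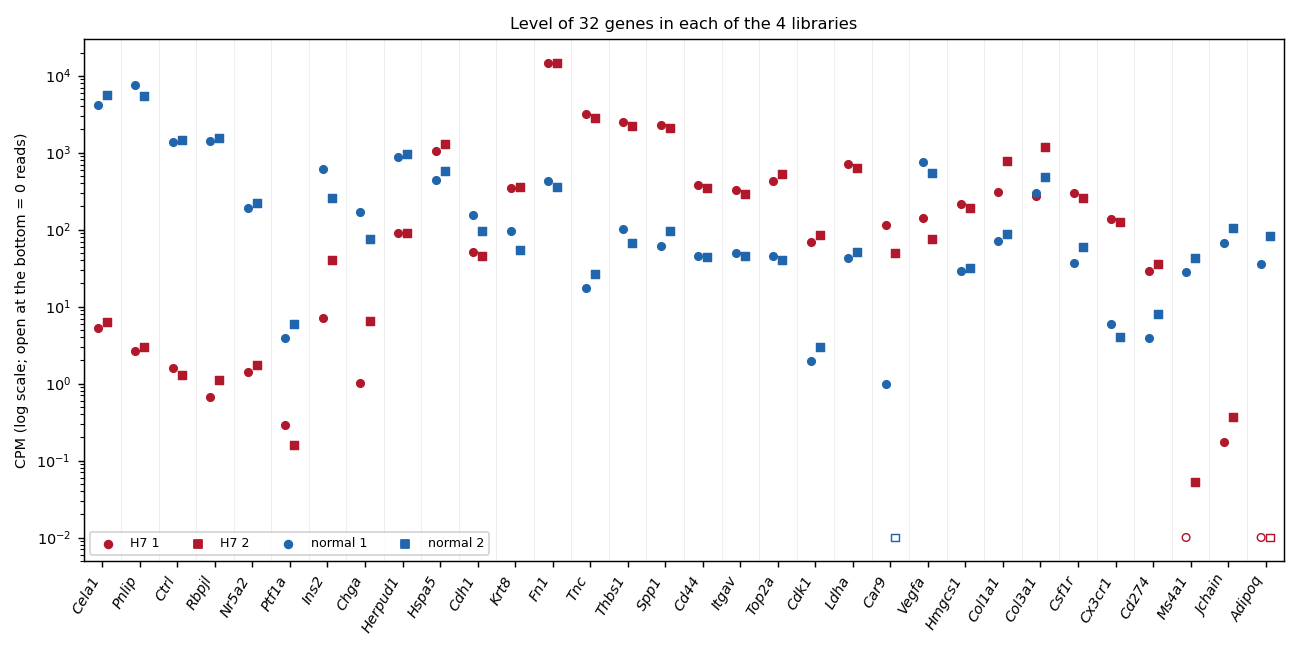
Level of 32 genes in CPM (log scale) in the 2 H7 libraries and the 2 normal libraries, with a level of 0 reads drawn open at the bottom. The points of Fn1, Cd44 and Top2a lie together within each group, while those of Ins2 and Col3a1 lie apart between the H7 libraries.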

How the data were processed

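RNA was extracted with a column kit, and libraries were made and sequenced by a service provider, per the labels. Reads were aligned with STAR to mm10 and counted with featureCounts, per the submitters' processing notes, which give no version for either. Strand and annotation release are not given in the sources used here. The authors deposited raw read counts per gene and library (27179 gene IDs), and a table of the comparison with fragment counts, TPM, log2 fold changes and p-values, made with DESeq2 1.18.1 per the same notes. Read counts were about 2 per deposited fragment count. Where they were clearly fewer (Nkx2-2, Krt18, Vim, Emp1, Mmp19, Cxcr2, Ltf, Dusp1 and Hba-a1 among the genes described) the value is uncertain, as are antisense and overlapping genes.

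Ribosomal RNA genes (37, of which 5 had reads) were removed. The 4 libraries were fitted in R 4.3.3 with edgeR 4.0.16 (filterByExpr, TMM factors, quasi-likelihood test, Benjamini-Hochberg adjustment over 14885 genes, threshold 0.05). TPM were recomputed from the deposited counts and gene lengths without ribosomal RNA. DESeq2 1.42.0, limma-voom (limma 3.58.1), other scalings and filters, thinning of the tumour counts to the normal depth and leaving out each library were alternatives. The fits were tested on simulated data. Names came from the deposited tables for 16286 IDs and from RefSeq for 9355, and 1538 had none. The comparison, its members and the 47 gene lists were chosen with earlier results of these data known, so lists are described by counts and medians and got no test.

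Described genes were the 5 study genes (Spp1, Cd44, Cd274, Pdcd1 and Wdr5), the 6 largest rises and falls among genes with at least 10 reads in each library and a mean of at least 20 CPM in the higher group, the genes of highest TPM, and in each list the up to 3 largest rises and falls at 5 CPM or more and the 3 most abundant members. The other members with values (Arg1, Ccl2, Ccr2, Cdh1, Cdkn1a, Cdkn2a, Col1a2, Csf1r, Fap, Gapdh, Gata4, Gata6, Gcg, Hyou1, Itga4, Itga8, Itga9, Krt19, Krt7, Nos2, Plau, Plaur, Postn, Ptf1a, Rab27b, Rbbp5, S100a8, Smad2, Spred2, Spry4, Tgfb1, Tgfb3, Thbs2, Trp53, Zeb1) were chosen after their values were seen. Members behind a count of 5 or fewer are also named, except a few members that are not reported here.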

Additional observations from a re-analysis of the deposited data

How the results depend on the processing

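Over 23 alternatives, of which 4 were added after seeing the data (the authors' fragment counts, tumours thinned without Lars2, totals without Lars2, and limma-voom with group weights), the counts of higher and lower genes moved by more than 1.5 times in these. Totals without ribosomal RNA, in place of TMM factors, gave 7132 higher and 1806 lower, and the same totals with Lars2 and the unnamed gene also out gave 4369 and 3264, near the 4262 and 3298 reported. The calls of Xbp1, Smad4, Flt1 and Pecam1, lost under the first totals, were kept under the second. A test against a fold of 2 gave 2408 and 2097. Tumours thinned to the normal depth without Lars2 gave 2608 higher. Leaving out each library in turn gave 0 to 4550 higher and 0 to 2688 lower, the 0 being edgeR with either H7 library left out. The replicate block gave 3668 higher and 2977 lower, and called all 5 skeletal muscle markers higher. Replicate numbers share only a number here, since the deviations of H7 library 1 and normal library 1 from their group means had a correlation of -0.0066 across genes. The log2 fold change of Dusp1 became 0.16 and that of Mbp 0.0676 under totals without ribosomal RNA, and both stayed below 0 with Lars2 and the unnamed gene also out. Of 243 called genes among the 262 selected for description, 179 kept their direction and call in all of the 21 alternatives that hold both H7 libraries and could test them. Few reads in normal pancreas may limit calls of falls of weakly expressed genes and of rises of genes without a normal read, which was not tested. The cause of the changes between settings was not tested either.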
